A study of Mus musculus with 40 samples.

Results

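Hepatic gene expression was compared between mice that received TCDD at 1 μg/kg and mice that received the sesame oil vehicle alone, to find out which transcripts respond at a middle dose of this contaminant. The members of the comparison are the 10 livers whose dose label is 1 or 0, 5 in each group, of 40 livers in 8 dose groups. All were from male C57BL/6 mice, recorded as 30 days old at the start and 58 days old at the end. The paper instead puts the first gavage at postnatal day 28. The mice were gavaged with 0.1 mL of sesame oil, with or without TCDD, once every 4 days over 28 days. TCDD, the most studied of the dioxins, is a chlorinated contaminant that persists in tissue. Each library is the liver RNA of 1 mouse.

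TCDD binds the aryl hydrocarbon receptor (AhR), which waits in the cytosol with heat shock protein 90 and moves to the nucleus once it holds a ligand. There it pairs with ARNT and binds DNA at dioxin response elements, whose core letters are GCGTG. In the liver this is best known for the induction of the cytochrome P450 enzymes of family 1, and the receptor also induces its own brakes, the AhR repressor (Ahrr) and the ADP-ribosyltransferase Tiparp. Hepatic responses to dioxins are also known to reach lipid handling, intermediary metabolism and immune cells.

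The core motif was searched in the RefSeq promoter windows (GRCm38.p6, 250 bases before to 50 bases after each gene start) to show the sequence around the genes with which the results begin. Cyp1a1 and Cyp1b1 are shown as the strongest of the known targets, with 1 match each. Ahrr, Htatip2 and Ugdh are shown because their windows hold 2 or 3 matches. The sequences run 5′ to 3′ on the strand of the gene, and capitals mark GCGTG or, on the other strand, CACGC.
Cyp1a1, chr9:57697363-57697662, plus strand: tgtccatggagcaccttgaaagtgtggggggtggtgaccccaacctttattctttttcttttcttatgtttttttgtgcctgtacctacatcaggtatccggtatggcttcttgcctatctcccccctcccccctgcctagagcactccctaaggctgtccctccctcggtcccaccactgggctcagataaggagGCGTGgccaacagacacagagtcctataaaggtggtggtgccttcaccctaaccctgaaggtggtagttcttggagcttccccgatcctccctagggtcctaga
Cyp1b1, chr17:79715012-79715311, minus strand: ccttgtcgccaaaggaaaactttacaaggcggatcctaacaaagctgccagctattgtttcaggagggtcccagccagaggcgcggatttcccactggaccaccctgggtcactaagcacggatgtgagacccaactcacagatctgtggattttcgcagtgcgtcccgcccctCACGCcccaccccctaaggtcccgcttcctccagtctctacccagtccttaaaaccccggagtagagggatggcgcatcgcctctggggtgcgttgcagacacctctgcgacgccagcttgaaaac
Ahrr, chr13:74292282-74292581, minus strand: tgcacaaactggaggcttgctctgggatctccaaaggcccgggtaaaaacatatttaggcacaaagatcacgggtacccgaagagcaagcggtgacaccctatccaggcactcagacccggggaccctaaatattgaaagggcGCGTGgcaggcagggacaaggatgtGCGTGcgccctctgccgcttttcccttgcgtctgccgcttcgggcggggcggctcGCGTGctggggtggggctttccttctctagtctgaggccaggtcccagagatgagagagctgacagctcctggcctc
Htatip2, chr7:49758856-49759155, plus strand: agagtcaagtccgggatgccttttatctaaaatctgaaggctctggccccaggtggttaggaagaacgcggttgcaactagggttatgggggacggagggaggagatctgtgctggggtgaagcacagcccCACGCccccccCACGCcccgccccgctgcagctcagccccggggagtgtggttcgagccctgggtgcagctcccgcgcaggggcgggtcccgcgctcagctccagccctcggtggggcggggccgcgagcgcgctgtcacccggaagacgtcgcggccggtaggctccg
Ugdh, chr5:65435793-65436092, minus strand: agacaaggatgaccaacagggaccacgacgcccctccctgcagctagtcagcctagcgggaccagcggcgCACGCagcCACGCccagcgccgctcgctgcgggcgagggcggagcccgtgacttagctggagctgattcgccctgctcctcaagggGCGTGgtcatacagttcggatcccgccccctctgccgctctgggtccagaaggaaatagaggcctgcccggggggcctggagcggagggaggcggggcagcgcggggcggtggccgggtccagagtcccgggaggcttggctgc

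Windows were found for 21 of the 27 genes searched, which are the called AhR targets and the genes with the largest changes, and 8 of these hold a match, 7 of 13 that rose and 1 of 8 that fell. Htatip2 has 2 windows and the one with more matches is printed. The windows of Cyp1a2 and Nqo1, both known targets that rose, hold no match. Across the table, 32.4% of the 32851 promoter windows hold at least 1 match. Among tested genes with a single window the share was 37.2% of 218 genes called higher, 38.6% of 44 called lower and 50.3% of 8596 not called. A match describes letters in this window, is no evidence of binding, and enhancers farther away were not searched.

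Libraries held 15496128 to 20853868 gene counts in vehicle and 16219827 to 18049306 at 1 μg/kg. The highest hepatocyte transcripts were present throughout, with Alb at 74100 to 92500 CPM in vehicle (CPM is the count of a gene scaled to a common library total) and 52900 to 71300 CPM at 1 μg/kg. A pair of libraries stood apart. Vehicle mouse 2 held skeletal muscle transcripts, with a summed level of 12 muscle genes of 610 CPM against 0.841 to 1.86 CPM in the other vehicle mice and 0.889 to 1.43 CPM at 1 μg/kg. Mouse 3 at 1 μg/kg held high acute phase transcripts, given below. Adipocyte markers, 4 genes in sum, reached 5.04 CPM in vehicle mouse 2, 14.2 CPM in treated mouse 1 and 8.5 CPM in treated mouse 3, and were at most 0.149 CPM in the other 7. The muscle list was chosen after the data were seen.

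At 1 μg/kg, 428 of 15373 tested genes (2.78%) were called differentially expressed, 330 higher (2.15%) and 98 lower (0.637%). Calls needed a fold change of at least 1.5 and an adjusted p under 0.05 by the quasi-likelihood test of edgeR. Of the genes called, 72 were at least 4-fold higher, 18 at least 4-fold lower and 169 changed by less than 2-fold. In 362 of them the 5 treated mice all lay on one side of the 5 vehicle mice, 287 above and 75 below, where 4.33% and 3.13% of all tested genes had groups so separated. The calls were made on these same mice, so much of this separation follows from the selection. Without vehicle mouse 2 the counts were 306 higher and 80 lower, without treated mouse 3 they were 296 and 62, and without both they were 244 and 50. Scaling by library totals in place of TMM gave 461 rises and 67 falls, so that 87.3% of the calls were rises in place of 77.1%, with the median of all genes shifted by 0.09 on the log2 scale.

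**Figure D1:**
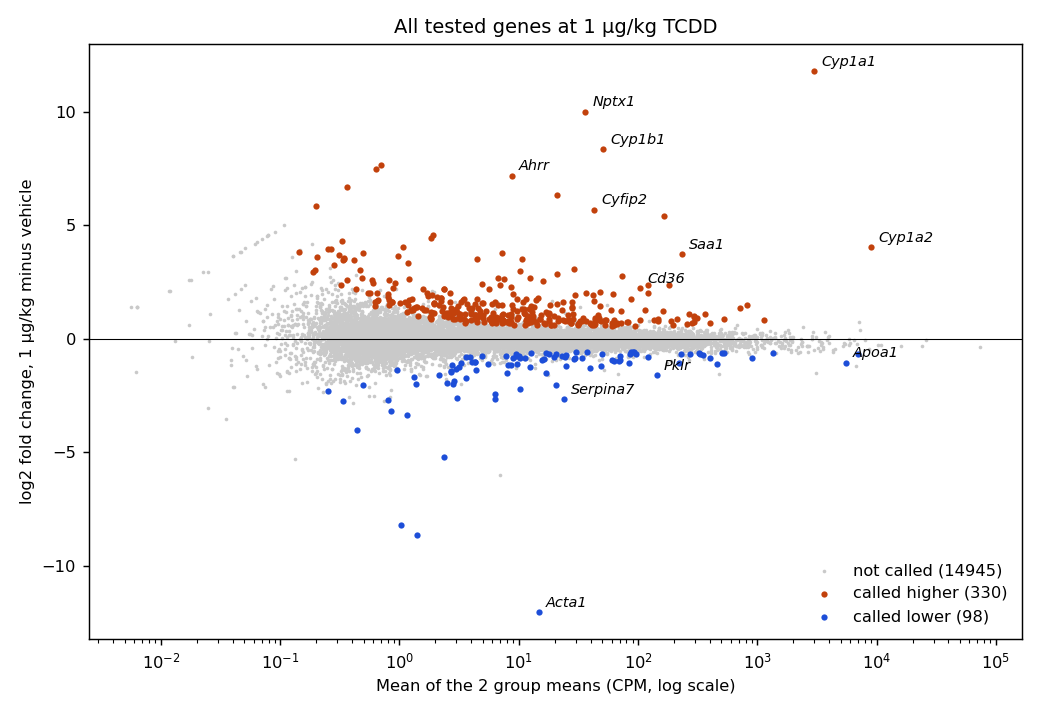
Log2 fold change (1 μg/kg minus vehicle) of each of the 15373 tested genes against the mean of the 2 group means in CPM, on a log axis. The 330 genes called higher and the 98 called lower are coloured, Cyp1a1 is the highest point, and the lowest point, Acta1, rests on vehicle mouse 2.

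The samples carry serial numbers in their titles that fall into 2 runs, up to 27 and from 28, with 3 vehicle and 3 treated mice in the first and 2 and 2 in the second. Of the 428 called genes, 424 had the same sign in both runs fitted alone. The genes were called from these same libraries, so this agreement followed largely from the selection and is no separate support. The difference between runs in the response to TCDD passed an adjusted p of 0.05 for 0 of 13263 genes in edgeR, with 1020 at an unadjusted p under 0.05, and for 7 genes in DESeq2. A principal component of the 10 libraries that took 25.6% of their variance set the groups apart.

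The AhR target genes included Cyp1a1, which had the largest rise of any tested gene. Of the 11 targets tested, 8 rose (Cyp1a1, Cyp1b1, Ahrr, Cyp1a2, Htatip2, Nqo1, Ugdh and Xdh) and none fell, against 2.15% of all genes called higher. Their median log2 fold change was 1.81, where the median of all tested genes was 0. The 8 genes kept their calls in each of the 10 fits without 1 library.

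Cyp1a1, the P450 enzyme that oxidizes polycyclic aromatic hydrocarbons and is the standard readout of AhR activity, was at 1.74, 1.62, 2.33, 0.979 and 1.65 CPM in the 5 vehicle mice. It was at 6910, 5890, 6050, 5660 and 5370 CPM in the 5 treated mice. The groups lay more than 3 orders of magnitude apart on this scale, and the treated mice differed little among themselves (mean 5976 ± 584 CPM, SD, n = 5). The log2 fold change was 11.80 (SE 0.27, adjusted p = 6.17e-30).

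Cyp1a2, a P450 that hepatocytes already make at high level and that metabolizes caffeine and arylamines, rose from 899, 901, 1090, 1030 and 1230 CPM in vehicle to 19300, 17100, 16900, 15800 and 16100 CPM. Its log2 fold change of 4.05 (SE 0.15, adjusted p = 2.4e-22) was smaller than that of Cyp1a1, and the groups did not overlap. Together these genes made up 0.0864% to 0.107% of all gene counts in vehicle livers and 2.11% to 2.57% at 1 μg/kg.

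Cyp1b1, the third member of the family and one that also hydroxylates estrogens, was at 0.0995, 0.684, 0.194, 0.49 and 0.0716 CPM in vehicle and 100, 77, 101, 142 and 88.1 CPM at 1 μg/kg, a log2 fold change of 8.36 (SE 0.35, adjusted p = 6.81e-21). Ahrr, the repressor that competes with AhR for ARNT, was at no more than 3 counts in any vehicle library. It reached 19.1, 14.9, 11.1, 19.3 and 22.2 CPM in the treated mice, at least 92.4-fold higher than a floor of 3 counts per library, 0.188 CPM in vehicle (adjusted p = 2.78e-14). At this depth its vehicle level could not be measured, so the fold change is a lower bound.

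The remaining targets rose by smaller factors. Htatip2, a short-chain oxidoreductase also linked to nuclear transport, was at 43.9, 48.1, 53.3, 50.3 and 42.5 CPM in vehicle and 218, 211, 208, 176 and 166 CPM at 1 μg/kg, a log2 fold change of 2.04 (SE 0.10, adjusted p = 2.94e-18). Nqo1, a quinone reductase under both AhR and NRF2, was at 5.04 to 7.34 CPM in vehicle and 15.5 to 28.2 CPM at 1 μg/kg, a log2 fold change of 1.81 (SE 0.22, adjusted p = 3.28e-07). Ugdh, which makes the UDP-glucuronic acid used in conjugation, was at 156 to 187 CPM in vehicle and 314 to 404 CPM at 1 μg/kg (1.08, adjusted p = 4.61e-08). Xdh, xanthine dehydrogenase of purine breakdown, was at 180 to 210 CPM in vehicle and 331 to 420 CPM at 1 μg/kg (0.96, adjusted p = 1.99e-07). None of the 4 had overlapping groups.

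Tiparp was at 7.31, 3.79, 4.85, 5.11 and 3.8 CPM in vehicle and 7.77, 6.46, 7.56, 10.4 and 9.87 CPM at 1 μg/kg. These groups overlapped, and its log2 fold change of 0.75 (SE 0.27, adjusted p = 0.122) did not pass. The conjugating enzymes Ugt1a6a (0.92, adjusted p = 0.0977) and Ugt1a6b (-0.26, adjusted p = 0.464) did not pass either. They share exons with the other Ugt1a genes, so their counts are uncertain. A fit of the 10 libraries alone called Tiparp and Ugt1a6a higher, and a fit with the title number run and the order within it as covariates called Ugt1a6a (0.97). Aldh3a1 had too few counts to be tested.

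The receptor and its partners did not pass the test, with 0 of 6 called by edgeR (0 at an unadjusted p under 0.05) and 0 by DESeq2. Ahr itself was at 36.5 to 44.4 CPM in vehicle and 39.4 to 63.9 CPM at 1 μg/kg (log2 fold change 0.40, adjusted p = 0.552). Arnt differed by 0.08, Ptges3 by -0.11, Hsp90ab1 by 0.20 and Hsp90aa1 by -0.39 on the log2 scale, with adjusted p from 0.423 to 0.878. In the first title number run alone Hsp90aa1 was called lower (-0.76), while in the second its log2 fold change was 0.15.

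The position of 1 μg/kg in the dose series differed between targets. Against 0.3 μg/kg, 2 of the 11 targets were higher at 1 μg/kg, Cyp1b1 by 4.82 on the log2 scale (adjusted p = 3.23e-16) and Ahrr by 3.21 (adjusted p = 1.42e-08), where 0.228% of all genes were called higher and 0.013% lower. Cyp1b1 had a mean of 3.57 ± 0.834 CPM at 0.3 μg/kg and 102 ± 24.8 CPM at 1 μg/kg (SD, n = 5 each), the widest step between these doses among the targets. Cyp1a1 and Cyp1a2 differed from 0.3 μg/kg by 0.68 (adjusted p = 0.0682) and 0.50 (adjusted p = 0.136), which did not pass.

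Against 3 μg/kg, Cyp1b1 was lower at 1 μg/kg by 1.15 (that is, a log2 fold change of -1.15, adjusted p = 0.0112) and Tiparp had a log2 fold change of -1.52 (adjusted p = 0.00142), where 9 genes in all (0.0585%) were called lower and 0 higher. Against 30 μg/kg, 6 of the 11 targets were lower at 1 μg/kg (20.3% of all genes were called lower). Cyp1b1 had a log2 fold change of -4.01, Tiparp -4.08, Nqo1 -2.99, Ahrr -1.95, Ugdh -1.21 and Htatip2 -0.72. None of the targets was called higher at 1 μg/kg, where 16.7% of all genes were. Xdh (0.54, adjusted p = 0.000135) and Cyp1a2 (-0.44, adjusted p = 0.00603) passed the test but not the fold threshold. Cyp1a1 differed from 30 μg/kg by 0.05 (SE 0.17, adjusted p = 0.823). Mean Cyp1a1 was 5770 ± 666 CPM at 30 μg/kg, within the range of the mice at 1 μg/kg, while Tiparp was at 143 ± 29.4 CPM there against 8.40 ± 1.65 CPM at 1 μg/kg (SD, n = 5 each).

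**Figure D2:**
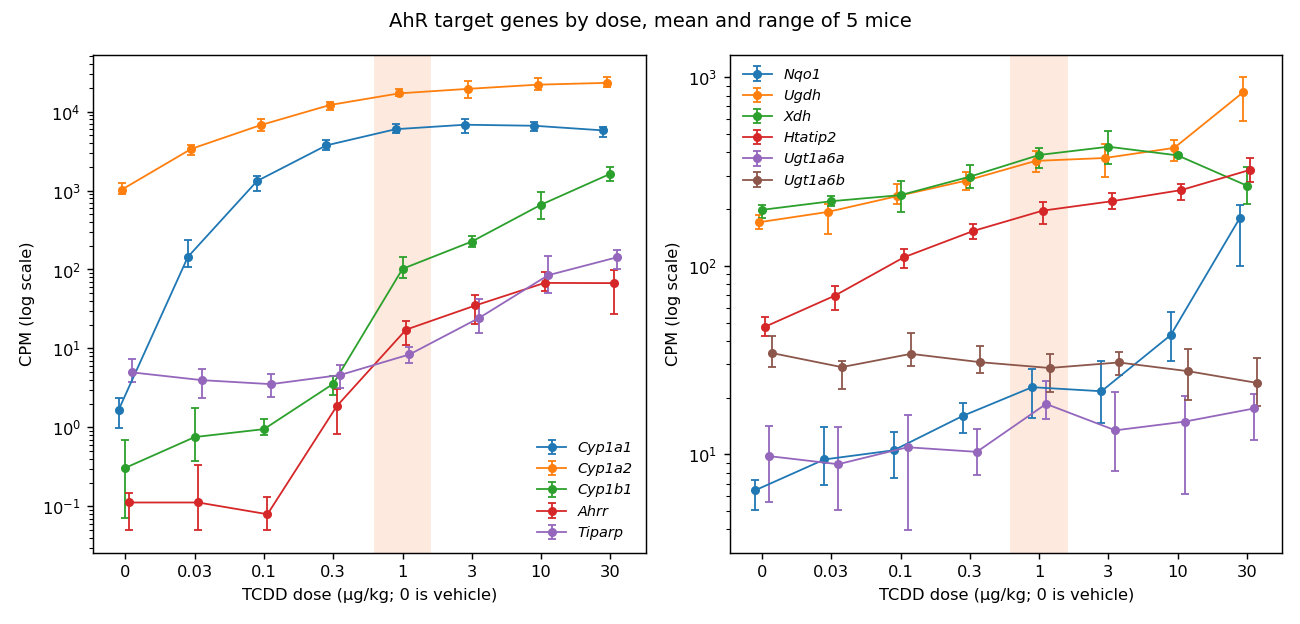
Mean CPM of 11 AhR target genes in the 8 dose groups on a log axis, with bars from the lowest to the highest of 5 mice (values under 0.05 CPM drawn there) and 1 μg/kg shaded. Cyp1a1 is near its highest level at 1 μg/kg, whereas Cyp1b1 and Tiparp are higher at 30 μg/kg.

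Of the largest rises, 11 are reported here, of which 4 were the AhR targets Cyp1a1, Cyp1b1, Ahrr and Cyp1a2. Most of the other 7 were shared by all 5 treated mice. Nptx1, a neuronal pentraxin secreted at synapses, was at no more than 3 counts in any vehicle library and at 76.9, 72, 52.9, 82.9 and 74 CPM in the treated mice, at least 382-fold above that floor (adjusted p = 2.81e-13). Cyfip2, a subunit of the WAVE complex that controls branched actin, was at 1.69, 1.68, 1.94, 1.12 and 1.72 CPM in vehicle and 78.1, 88.4, 72.8, 88.5 and 95.2 CPM at 1 μg/kg. No value overlapped between groups (log2 fold change 5.69, SE 0.30, adjusted p = 1.15e-17).

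Osbpl3, an oxysterol binding protein relative (0.21 to 1.43 CPM in vehicle and 8.55 to 18.2 CPM at 1 μg/kg), Tnfaip8l3, a phosphoinositide transfer protein (0.129 to 1.62 CPM in vehicle and 5.67 to 10.6 CPM at 1 μg/kg), and Tuba8, an alpha tubulin (0.931 to 2.55 CPM in vehicle and 16.1 to 21.7 CPM at 1 μg/kg), rose by 3.79, 3.52 and 3.51 on the log2 scale.

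Saa1 and Saa2, the acute phase serum amyloid A proteins, were dominated by 1 mouse. Saa1 was at 58.6, 59.6, 1960, 38.2 and 39.5 CPM in the treated mice and 21.1, 39.7, 30.4, 50.9 and 20.4 CPM in vehicle, and Saa2 at 21.3, 34.4, 1520, 18.3 and 18.2 CPM and 4.68, 8.09, 8.09, 7.14 and 9.6 CPM. Mouse 3 was far above the other treated mice for both. Saa2 was nevertheless higher in all 5 treated mice than in any vehicle mouse, whereas the groups overlapped for Saa1. Without mouse 3 the log2 fold change of Saa1 went from 3.73 to 0.59 (adjusted p = 0.798) and that of Saa2 from 5.43 to 1.62 (adjusted p = 0.356). Orm2, the acute phase orosomucoid, was at 85.3 CPM in mouse 3 and 11.0 to 15.3 CPM in the others, and its log2 fold change went from 1.5 to 0.39 without it (adjusted p = 0.724). These were the 3 calls among 35 acute phase and complement genes (8.57%, against 2.15% of all genes called higher). Without mouse 3 there were none (edgeR, same threshold). Saa1 and Saa2 are near-identical copies whose reads may be shared or lost.

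**Figure D3:**
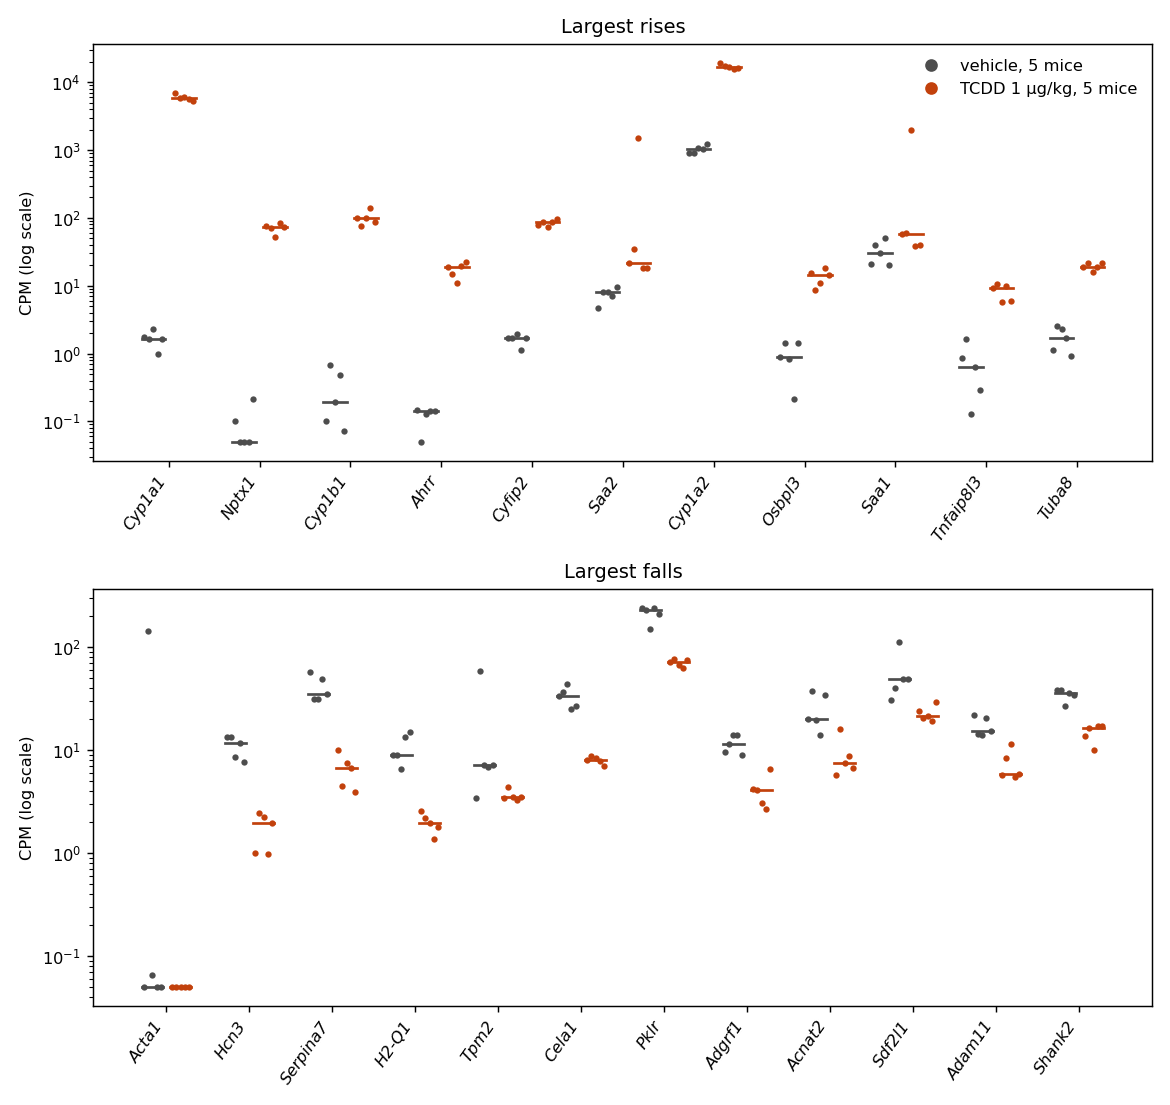
CPM on a log axis of 11 of the largest rises and the 12 largest falls in each of the 5 vehicle and 5 treated mice, with the median as a line and values under 0.05 CPM drawn there. Single high points stand out for Saa1 and Saa2 at 1 μg/kg and for Acta1 and Tpm2 in vehicle.

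The largest falls were smaller than the largest rises once the muscle transcripts of vehicle mouse 2 are set aside. Acta1, skeletal muscle actin, was at 146 CPM in vehicle mouse 2 and at 0 to 0.0647 CPM in all other mice, and Tpm2, a muscle tropomyosin, at 59.5 CPM and at 3.25 to 7.18 CPM. Without vehicle mouse 2 both calls were lost (log2 fold change -1.70, adjusted p = 0.816, and -0.76, adjusted p = 0.171). In all, 94 of the 428 calls were lost without this mouse, 32 of them falls, 334 were kept and 52 genes were newly called.

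Serpina7, the thyroxine-binding globulin that carries thyroid hormone in plasma, was at 57.5, 31.3, 31.5, 48.8 and 35.5 CPM in vehicle and 10.1, 4.54, 7.56, 6.66 and 3.89 CPM at 1 μg/kg, a log2 fold change of -2.64 (SE 0.36, adjusted p = 3.82e-06). Hcn3, a pacemaker channel subunit, was at 7.74 to 13.4 CPM in vehicle and 0.991 to 2.45 CPM at 1 μg/kg (-2.66, adjusted p = 4.82e-06). H2-Q1, a class Ib MHC gene, was at 6.54 to 15.1 CPM in vehicle and 1.38 to 2.55 CPM at 1 μg/kg (-2.42, adjusted p = 0.00032), and its near copies in the H2-Q cluster make its counts uncertain. None of these had overlapping groups.

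Cela1, an elastase, was at 33.4, 36.5, 43.9, 25 and 27.1 CPM in vehicle and 8.12, 8.85, 8.38, 7.88 and 7.1 CPM at 1 μg/kg (log2 fold change -2.04, SE 0.26, adjusted p = 6.58e-07). It was listed as a marker of pancreatic acinar cells. The other markers of that list, Cpa1, Prss2, Pnlip and Ctrb1, were at or near 0 in these 10 livers, with at most 11 counts for the first 3. The part of such cells in the fall of Cela1 was not tested. Pklr, the liver pyruvate kinase and a target of the carbohydrate response factor ChREBP, was at 240, 233, 150, 241 and 210 CPM in vehicle and 72.6, 77.7, 67.1, 63 and 75 CPM at 1 μg/kg (log2 fold change -1.59, SE 0.28, adjusted p = 0.000243).

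The remaining falls were Adgrf1, an adhesion G protein-coupled receptor (-1.49), Acnat2, an acyl-CoA to amino acid acyltransferase of peroxisomes (-1.49), Adam11 (-1.22), the scaffold protein Shank2 (-1.21) and Sdf2l1, an endoplasmic reticulum chaperone cofactor (-1.30). Sdf2l1 was the least stable of them. It was at 30.8, 40.5, 112, 49.4 and 49.6 CPM in vehicle, where mouse 3 stood apart, and its call (adjusted p = 0.047) was lost in 8 of the 10 fits without 1 library, all but those without vehicle mouse 1 or vehicle mouse 2 (adjusted p up to 0.270).

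Other enzymes of xenobiotic metabolism responded in part. Of 18 UDP-glucuronosyltransferases, 3 rose (16.7%, against 2.15% of all genes) and none fell. Ugt1a9 was at 40, 53.4, 35.4, 35.3 and 32.3 CPM in vehicle and 254, 195, 187, 182 and 209 CPM at 1 μg/kg (log2 fold change 2.38, SE 0.18, adjusted p = 1.61e-12), Ugt2b35 rose by 0.74 and Ugt1a1, the bilirubin-conjugating enzyme, by 0.67 on the log2 scale. Of 21 glutathione S-transferases, 3 rose (14.3%, against the same background): Gstp2 (log2 fold change 2.65, SE 0.45, adjusted p = 0.000132), Gsta1 (log2 fold change 1.99, SE 0.38, adjusted p = 0.00078) and Gstm3 (log2 fold change 0.89, SE 0.24, adjusted p = 0.0272). The call of Gstm3 was lost in 6 of 10 fits without 1 library, among them that without vehicle mouse 2 (adjusted p up to 0.11). Both families have close copies, and the split of reads between members is uncertain.

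Outside the Cyp1 family, 2 of 54 tested cytochromes P450 were called, Cyp2a5 and Cyp2g1, both higher (3.70%, near the background of 2.15% for rises). Cyp2a5, the coumarin hydroxylase, was at 347, 448, 446, 395 and 524 CPM in vehicle and 1720, 1220, 1160, 1060 and 939 CPM at 1 μg/kg (log2 fold change 1.5, SE 0.23, adjusted p = 4.24e-05). Cyp2g1, known mainly from olfactory tissue, was at 4.30 CPM or less in every mouse (log2 fold change 1.57, SE 0.43, adjusted p = 0.0271), and 5 of 10 fits without 1 library lost it (adjusted p up to 0.0966). Fmo2 rose by 0.89 (adjusted p = 0.042) with overlapping groups, and 6 such fits lost it (adjusted p up to 0.160). Of 13 carboxylesterases, Ces2c (1.29, adjusted p = 9.36e-06) and Ces1b (0.82, adjusted p = 0.000448) rose, a share of 15.4% against 2.15% of all genes.

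Of 22 hepatocyte transcription factors and nuclear receptors, Nr1i3 and Pparg rose and none fell in edgeR (9.09% called, against 2.15% of all genes called higher; DESeq2 also called 1 lower), with 13 negative and a median of -0.07. Nfe2l2, which encodes NRF2, was at 65.5 to 95.7 CPM in vehicle and 92.4 to 169 CPM at 1 μg/kg (log2 fold change 0.83, SE 0.19, adjusted p = 0.00754). It was the 1 called gene in edgeR among 18 NRF2 antioxidant genes (5.56%, against 2.15% of all genes called higher). DESeq2 and scaling to total counts each called 2 of them higher. Nqo1, also under NRF2, was counted with the AhR targets and not in this list. Nr1i3, the constitutive androstane receptor, rose by 0.72 (adjusted p = 0.00675). Pparg, a nuclear receptor of fat storage that is low in lean liver, was at 6.52, 8.52, 8.8, 7.35 and 8.6 CPM in vehicle and 18.6, 15.7, 20.5, 21.1 and 14.3 CPM at 1 μg/kg (log2 fold change 1.18, SE 0.19, adjusted p = 6.87e-05). Abcc3, a basolateral exporter of bile acids and glucuronides, rose by 0.89 (adjusted p = 0.00115). The pericentral transporters Slc1a2, for glutamate, and Slc13a3, for dicarboxylates, rose by 0.88 and 0.84 (adjusted p = 0.000371 and 7.23e-05). They were 2 of the 14 pericentral genes tested (14.3%, against 2.15% of all genes called higher).

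Genes of lipid handling moved in both directions. Cd36, a fatty acid translocase, was at 37.3, 61.5, 25, 20.7 and 37.6 CPM in vehicle and 202, 148, 170, 196 and 143 CPM at 1 μg/kg, a log2 fold change of 2.24 (SE 0.26, adjusted p = 1.02e-07). Lpl, lipoprotein lipase, was at 22.4 to 45.6 CPM in vehicle and 76.6 to 92.2 CPM at 1 μg/kg (log2 fold change 1.28, SE 0.25, adjusted p = 0.000816). With Mgll, which hydrolyses monoglycerides (0.61), and Fitm2, a lipid droplet protein (0.63), they were the 4 that rose of 30 genes of lipid uptake and lipid droplets (13.3%, against 2.15% of all genes called higher), and none fell. Mgll was lost without vehicle mouse 1, 4 or 5 or treated mouse 1, where its log2 fold change reached a low of 0.53. Fitm2 was lost without vehicle mouse 1 or treated mouse 1 or 3, also with a low of 0.53. Adipocytes also make genes of this list. For each of the 4 that rose, all 5 treated mice lay above all vehicle mice. The summed adipocyte markers were at 14.2 and 8.5 CPM in treated mice 1 and 3 and at most 0.113 CPM in treated mice 2, 4 and 5. The part of adipocytes in these 4 rises, and in that of Pparg above, was not tested.

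Of 24 genes of fatty acid synthesis, 2 fell (8.33%, against 0.637% of all genes called lower). Elovl2, which elongates polyunsaturated fatty acids, was at 589 to 692 CPM in vehicle and 383 to 460 CPM at 1 μg/kg (log2 fold change -0.61, SE 0.13, adjusted p = 0.004), and without vehicle mouse 5 or treated mouse 4 it fell just short of the fold threshold (to -0.57). Elovl6, which elongates palmitate, was at 59.5 to 156 CPM in vehicle and 36.3 to 61.3 CPM at 1 μg/kg (log2 fold change -0.98, SE 0.27, adjusted p = 0.0282), and 6 of 10 fits without 1 library lost it (adjusted p up to 0.163). Under scaling to total counts neither was called. The median log2 fold change of the 24 was -0.35, and 19 were negative, with Pnpla3 at -1.63 (adjusted p = 0.136) and Acly at -0.61 (adjusted p = 0.239), which did not pass.

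Crat, carnitine acetyltransferase, was at 66, 70.4, 68.2, 54.4 and 80.1 CPM in vehicle and 37.6, 25.9, 28.6, 30.9 and 24.2 CPM at 1 μg/kg (log2 fold change -1.20, SE 0.22, adjusted p = 0.000309). With Acaa1b, a peroxisomal thiolase (-0.62, lost in 8 of 10 fits without 1 library, adjusted p up to 0.0969), it was 1 of 2 falls among 31 genes of fatty acid oxidation (6.45%, against 0.637% of all genes called lower), whose median was -0.01. Apoa1, the main protein of high density lipoprotein, was at 6320, 6670, 7780, 7910 and 8390 CPM in vehicle and 3390, 4720, 3180, 2730 and 4030 CPM at 1 μg/kg (log2 fold change -1.04, SE 0.28, adjusted p = 0.023). The groups did not overlap, but 6 of 10 fits without 1 library lost the call (adjusted p up to 0.0765). Insig2, the sterol sensor that holds SREBP in the endoplasmic reticulum, was at 328 to 346 CPM in vehicle and 194 to 249 CPM at 1 μg/kg (log2 fold change -0.66, SE 0.19, adjusted p = 0.0404), lost in 9 of 10 such fits (adjusted p up to 0.0943). It was the 1 call of 26 cholesterol synthesis genes (3.85%, against 0.637% of all genes called lower).

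In carbohydrate metabolism the pyruvate kinases moved in opposite directions. While Pklr fell, Pkm, the isoform of non-hepatocyte and proliferating cells, was at 11.8, 25.3, 13.1, 12.7 and 12.6 CPM in vehicle and 58.9, 36.2, 41.1, 33.9 and 32.7 CPM at 1 μg/kg (log2 fold change 1.42, SE 0.20, adjusted p = 6.89e-06). Vehicle mouse 2, with the muscle transcripts, was the highest control for Pkm and still lay under every treated mouse. Hk3, a hexokinase of myeloid cells, was at 2.45 to 4.83 CPM in vehicle and 8.65 to 10.6 CPM at 1 μg/kg (log2 fold change 1.48, SE 0.25, adjusted p = 0.000141). These were the 3 calls among 30 genes of glycolysis, gluconeogenesis and glycogen (10%, against 2.78% of all genes called in either direction). Of the 30, 22 had a negative log2 fold change (median -0.23). Gys2, liver glycogen synthase (-0.49, adjusted p = 0.0449), passed the test but not the fold threshold.

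Of 18 genes of the unfolded protein and integrated stress response, 3 fell and 1 rose, where 0.637% of all genes were called lower and 2.15% higher. Hspa5, the chaperone BiP, was at 821, 947, 1790, 1100 and 1070 CPM in vehicle and 647, 601, 640, 617 and 701 CPM at 1 μg/kg (log2 fold change -0.84, SE 0.22, adjusted p = 0.0195). Manf, a secreted stress factor, was at 77.8 to 178 CPM in vehicle and 44.7 to 59.1 CPM at 1 μg/kg (log2 fold change -1.06, SE 0.28, adjusted p = 0.0234), and Sdf2l1 is described above. Vehicle mouse 3 was the highest control for all 3, and without it the log2 fold change of Hspa5 was -0.62 (adjusted p = 0.130) and that of Manf -0.84 (adjusted p = 0.122). Manf was also lost without treated mouse 1 or treated mouse 4. Without vehicle mouse 2 and treated mouse 3, 1 of the 18 was called lower and 0 higher by edgeR. Psat1, of serine synthesis and a target of ATF4, was at 0.43 to 0.909 CPM in vehicle and 1.16 to 4.91 CPM at 1 μg/kg (log2 fold change 1.94, SE 0.45, adjusted p = 0.00676).

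Of 8 genes of thyroid hormone handling, 3 fell, against 0.637% of all genes called lower. Beside Serpina7, Ttr, transthyretin, was at 8550, 7600, 8350, 8370 and 9820 CPM in vehicle and 5790, 5790, 4870, 5200 and 5180 CPM at 1 μg/kg (log2 fold change -0.67, SE 0.16, adjusted p = 0.0111), and Sult1a1, a phenol sulfotransferase, was at 220 to 345 CPM in vehicle and 154 to 232 CPM at 1 μg/kg (log2 fold change -0.68, SE 0.14, adjusted p = 0.00293). The call of Ttr was lost under scaling to total counts (-0.58), where Serpina7 and Sult1a1 remained. Cry1, a repressor of the circadian clock, was at 30.5 to 44.3 CPM in vehicle and 15.9 to 28.4 CPM at 1 μg/kg (log2 fold change -0.87, SE 0.22, adjusted p = 0.0133). It was the 1 call of 20 clock genes in edgeR (5%, against 0.637% of all genes called lower), and DESeq2 also called 1 of them higher. Igfbp2, a binding protein for insulin-like growth factors, was at 558 to 727 CPM in vehicle and 201 to 404 CPM at 1 μg/kg (log2 fold change -1.12, SE 0.29, adjusted p = 0.0174). Cry1 and Igfbp2 were both lost without treated mouse 1 or treated mouse 3 (adjusted p up to 0.0507 and 0.0646).

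Genes of antigen presentation by MHC class II rose together. All 7 tested were called higher, against 2.15% of all genes, with a median log2 fold change of 1.77, and none had overlapping groups. The list was chosen with earlier results of these data known, so its share is no separate support. H2-Ab1, a chain of the class II molecule, was at 21.4, 18.2, 17.3, 12.2 and 25.1 CPM in vehicle and 86.2, 102, 59, 67.7 and 74.7 CPM at 1 μg/kg (log2 fold change 2.05, SE 0.33, adjusted p = 5.54e-05). H2-Eb1 rose by 2.02, H2-Aa by 1.95, Cd74, the invariant chain, by 1.77, the peptide-loading subunits H2-DMa and H2-DMb1 by 1.56 and 1.54, and Ciita, the master regulator of the class II genes, by 1.72 on the log2 scale (adjusted p from 2.46e-05 to 0.000745). Each kept its call without any 1 of the 10 libraries and without both libraries that stood apart.

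Among markers of Kupffer cells, the resident macrophages of the liver, 6 of 13 tested rose (Adgre1, Csf1r, Cd5l, C1qa, C1qb and C1qc), or 46.2% against 2.15% of all genes. The other 7 did not pass, and all 13 had positive log2 fold changes, with a median of 0.72. Their summed level was 216 to 301 CPM in vehicle and 413 to 461 CPM at 1 μg/kg, with no overlap. Csf1r, the receptor on which macrophages depend, was at 34.5, 28.9, 27.1, 28 and 32.8 CPM in vehicle and 54.4, 60.7, 52.1, 61.2 and 58.6 CPM at 1 μg/kg (log2 fold change 0.92, SE 0.16, adjusted p = 0.000268). Adgre1, the F4/80 antigen, was at 5.04 to 10.2 CPM in vehicle and 14.2 to 18 CPM at 1 μg/kg (log2 fold change 1.10, SE 0.24, adjusted p = 0.00328). Clec4f, the marker most particular to Kupffer cells, was at 56.2 to 79.2 CPM in vehicle and 92.1 to 103 CPM at 1 μg/kg (0.56, adjusted p = 0.0563), which did not pass. Cd5l was lost without vehicle mouse 4 or treated mouse 1, C1qa without treated mouse 2 and C1qb without vehicle mouse 4 (adjusted p of 0.0503 to 0.0815). Without both libraries that stood apart, 3 of the 13 were called. In whole liver, more cells of a type and more RNA per cell cannot be told apart, and the part of cell number in the rise of the MHC class II genes was not tested.

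Other immune cells gave few calls, although most of their tested markers had positive log2 fold changes. These were 7 of 8 for monocytes (median 0.56), 7 of 7 for dendritic cells (median 0.61) and 9 of 10 for T and NK cells (median 0.67). For neutrophils they were 3 of 4. Monocyte markers gave 0 of 8 in edgeR and DESeq2 (1 at an unadjusted p under 0.05), with a summed level of 32.7 to 45.7 CPM in vehicle and 46.7 to 57.7 CPM at 1 μg/kg. T and NK cell markers gave 0 of 10 in both tools (2 at that unadjusted p), and their defining genes Cd3e and Cd8a reached at most 1.36 CPM, with Cd8a higher in every treated mouse than in any vehicle mouse (1.69, adjusted p = 0.147). Of 7 dendritic cell markers, 1 was called in edgeR (14.3%, against 2.15% of all genes called higher). This was Xcr1, of cross-presenting dendritic cells, which rose by 2.03 (adjusted p = 0.0276). It was at 0 to 0.560 CPM in vehicle and 0.789 to 1.43 CPM at 1 μg/kg. At this level of few counts, 4 of 10 fits without 1 library lost it (adjusted p up to 0.0785). Neutrophil markers were near 0, with 0 of 4 tested called in both tools (0 at that unadjusted p) and Mpo at 0 in all 10 livers.

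Of 27 interferon-stimulated genes, 5 rose (18.5%, against 2.15% of all genes called higher) and 20 had positive log2 fold changes (median 0.46). Cxcl9, a T cell chemokine induced by interferon gamma, was at 9, 4.35, 5.5, 4.55 and 9.24 CPM in vehicle and 24.4, 25.3, 11.1, 25.7 and 20.9 CPM at 1 μg/kg (log2 fold change 1.71, SE 0.45, adjusted p = 0.0222). Gbp2, a guanylate binding protein, rose by 1.62 (adjusted p = 0.00535) and kept its call without any 1 library. Gbp3 (1.06) and Usp18 (0.69) were near the threshold and were lost in 7 and 8 of 10 such fits (adjusted p up to 0.124 and 0.141), and Cxcl9 in 4 (up to 0.0723). Without both libraries that stood apart, 2 of the 27 were called.

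Of 18 genes of lysosomes and lipid-associated macrophages, 4 rose (22.2%, against 2.15% of all genes called higher), and the median was 0.02. These were Lpl, the macrophage cathepsin Ctss (log2 fold change 1.05, SE 0.22, adjusted p = 0.0021), the lectin Lgals3 (1.07, lost in 4 of 10 fits without 1 library, adjusted p up to 0.0802) and the adaptor Tyrobp (0.74, lost in 8, up to 0.154). Cxcl12, the chemokine ligand of CXCR4, was at 368 to 426 CPM in vehicle and 233 to 271 CPM at 1 μg/kg (log2 fold change -0.65, SE 0.09, adjusted p = 3.82e-06), a fall with no overlap that reached the fold threshold under TMM and not under total counts (-0.56). It was the 1 fall among 21 tested cytokines, chemokines and their receptors, of which 1 rose (9.52% called, against 2.78% of all genes in either direction). Of the 21, 16 had positive log2 fold changes (median 0.66). In 7 of 10 fits without 1 library edgeR did not call the rise.

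**Figure D4:**
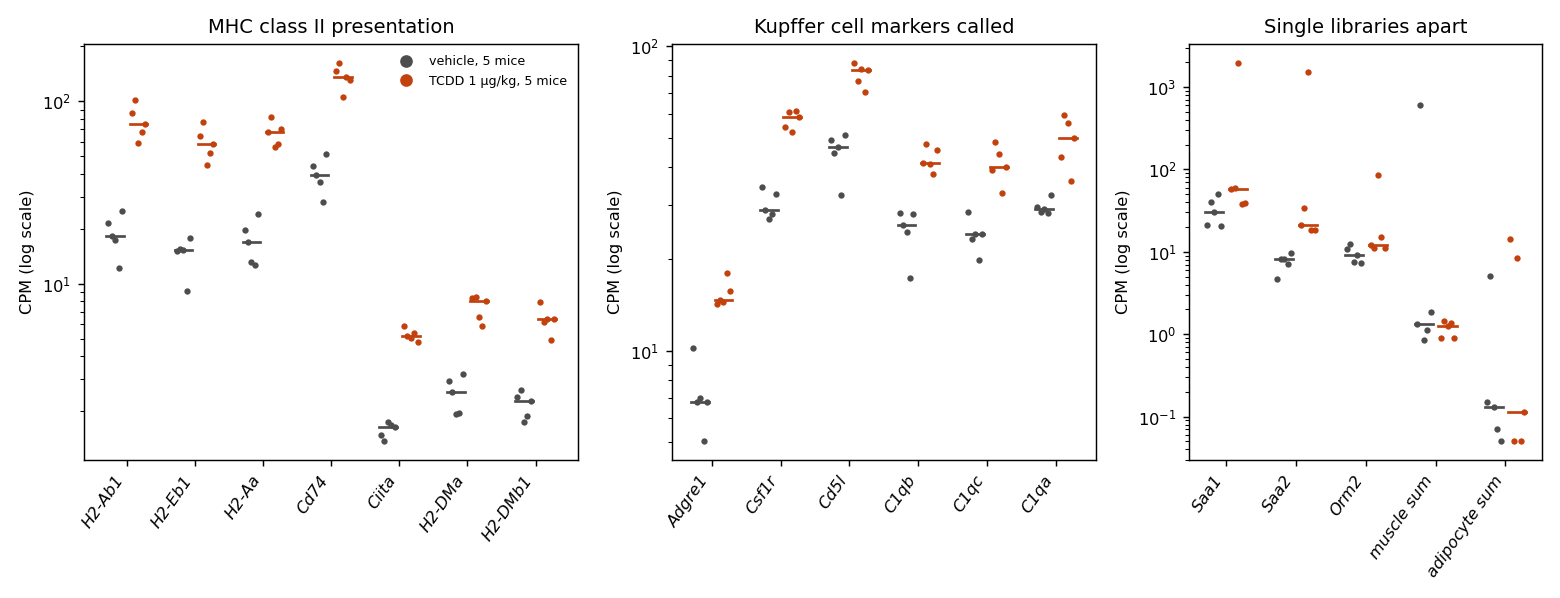
CPM on a log axis in the 5 vehicle and 5 treated mice for 7 MHC class II genes, the 6 called Kupffer cell markers, and the acute phase genes with the summed muscle and adipocyte markers, with medians as lines and values under 0.05 CPM drawn there. The class II genes and Kupffer markers are higher in every treated mouse, the muscle sum stands out in 1 vehicle mouse, and the acute phase genes are highest by far in treated mouse 3.

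Markers of other resident cells were mostly not called. Hepatocyte markers gave 2 falls of 8, Ttr and Apoa1 (25%, against 0.637% of all genes called lower), with 7 negative (median -0.33). Groups did not overlap for 5 of the 8, among them Alb, Trf and Cps1, which were not called. The summed level of the 8 was 118000 to 143000 CPM in vehicle and 84500 to 106000 CPM at 1 μg/kg. Endothelial markers gave 0 of 10, stellate cell markers 0 of 9 and cholangiocyte markers 0 of 7 in edgeR and DESeq2 alike, with 4, 2 and 1 at an unadjusted p under 0.05. All 10 endothelial markers had positive log2 fold changes (median 0.24), and Cdh5, the vascular cadherin, passed the test under the fold threshold (0.50, adjusted p = 0.0344), with every treated mouse above every vehicle mouse. Of the stellate cell markers 4 were positive and 5 negative (median -0.02), and 6 of the 7 cholangiocyte markers were negative (median -0.34). Erythroid markers gave 0 of 5 in edgeR (3 at that unadjusted p) and 1 lower in DESeq2, with all 5 negative and sums of 234 to 392 CPM in vehicle and 173 to 248 CPM at 1 μg/kg. B and plasma cell markers gave 0 of 7 in both tools (2 at that unadjusted p), and their sum, 301 to 364 CPM in vehicle and 197 to 250 CPM at 1 μg/kg, was almost all Sdc1, which hepatocytes express (Sdc1 log2 fold change -0.58, adjusted p = 0.00941, under the fold threshold).

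Of the genes that mouse liver expresses with a bias to females, 3 of 18 rose (16.7%, against 2.15% of all genes called higher), among them Fmo2 and Abcd2. Abcd2, a peroxisomal importer of very long chain acyl-CoA, rose by 1.01 (adjusted p = 0.0244, lost in 5 of 10 fits without 1 library, up to 0.0951). Of 24 male-biased genes 0 were called in edgeR and in DESeq2 (5 at an unadjusted p under 0.05), with 17 negative (median -0.34), Mup3 at -1.21 (adjusted p = 0.233) and Hsd3b5 at -1.07 (adjusted p = 0.286). Their summed level varied widely within vehicle, from 14600 to 31200 CPM, and was 10200 to 18800 CPM at 1 μg/kg.

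The cobalamin-dependent and alternative routes of propionyl-CoA breakdown, which the study set out to follow, gave no calls at 1 μg/kg. Of 9 genes of propionyl-CoA metabolism, 0 were called in edgeR and DESeq2 (1 at an unadjusted p under 0.05), with log2 fold changes from -0.12 to 0.27. Echs1, the short-chain enoyl-CoA hydratase, was at 234, 276, 255, 263 and 308 CPM in vehicle and 312, 323, 282, 255 and 270 CPM at 1 μg/kg (log2 fold change 0.11, SE 0.11, adjusted p = 0.744). Mut, methylmalonyl-CoA mutase, which needs cobalamin, was at 176, 151, 143, 167 and 116 CPM and 143, 118, 132, 164 and 135 CPM (log2 fold change -0.12, SE 0.20, adjusted p = 0.864). The carboxylase subunits Pcca and Pccb differed by -0.06 and -0.08, Mcee by 0.07, Hibch by 0.02, Acads by -0.01, Adhfe1 by 0.14 and Aldh6a1 by 0.27. The 5 treated mice lay above the 5 vehicle mice for Aldh6a1 (adjusted p = 0.302), and the other 8 genes had overlapping groups.

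Of 11 genes of cobalamin uptake and processing, 0 were called in edgeR and DESeq2 (0 at an unadjusted p under 0.05). Tcn2, the plasma carrier of cobalamin, was at 112 to 134 CPM in vehicle and 121 to 153 CPM at 1 μg/kg (0.22, adjusted p = 0.427). The others were Mtrr (0.26), Mtr (0.10), the receptor Cd320 (0.04), Lmbrd1 (0.04), Mmaa (-0.03), Mmab (0.03), Mmachc (-0.02), Mmadhc (0.01), Asgr1 (-0.09) and Asgr2 (-0.20). Signs this close to 0 depended on the settings. Acod1, which makes itaconate in macrophages, was at 0 to 0.07 CPM in vehicle, under the floor of 3 counts, and at 0.11 to 0.395 CPM at 1 μg/kg. Its groups did not overlap, and it did not pass (adjusted p = 0.0673), although under scaling to total counts it was called higher (log2 fold change 3.04). No treated library held more than 7 counts of Acod1, so its fold is only bounded from below, at 1.31 against that floor. Clybl (-0.17) and Auh (0.24) did not pass either, with 1 of these 3 itaconate genes at an unadjusted p under 0.05 in edgeR and 0 called in DESeq2.

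Of 28 genes of matrix and fibrosis, 1 was called higher (3.57%, near the background of 2.15%), and 0 without treated mouse 3. Lists with 0 calls in edgeR were bile acid synthesis (16 genes), amino acid and urea cycle enzymes (28), the methionine cycle (17), heme and iron (24), retinoids (15), the cell cycle (25, with 1 higher in DESeq2) and p53 targets (15), and otherwise 0 in DESeq2. In that order, 3, 6, 4, 4, 3, 4 and 0 of them had an unadjusted p under 0.05. Within the amino acid list 19 of 28 were negative (median -0.24), and Glud1, glutamate dehydrogenase, passed the test with a log2 fold change of -0.40 (adjusted p = 0.0160), under the fold threshold. The reference genes Actb (0.01), Gapdh (-0.31) and Hprt (0.32) did not pass in edgeR or DESeq2, with 2 of 3 at an unadjusted p under 0.05. Gapdh was at 1500 to 1950 CPM in vehicle and 1240 to 1440 CPM at 1 μg/kg, with no overlap between groups (adjusted p = 0.249).

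**Figure D5:**
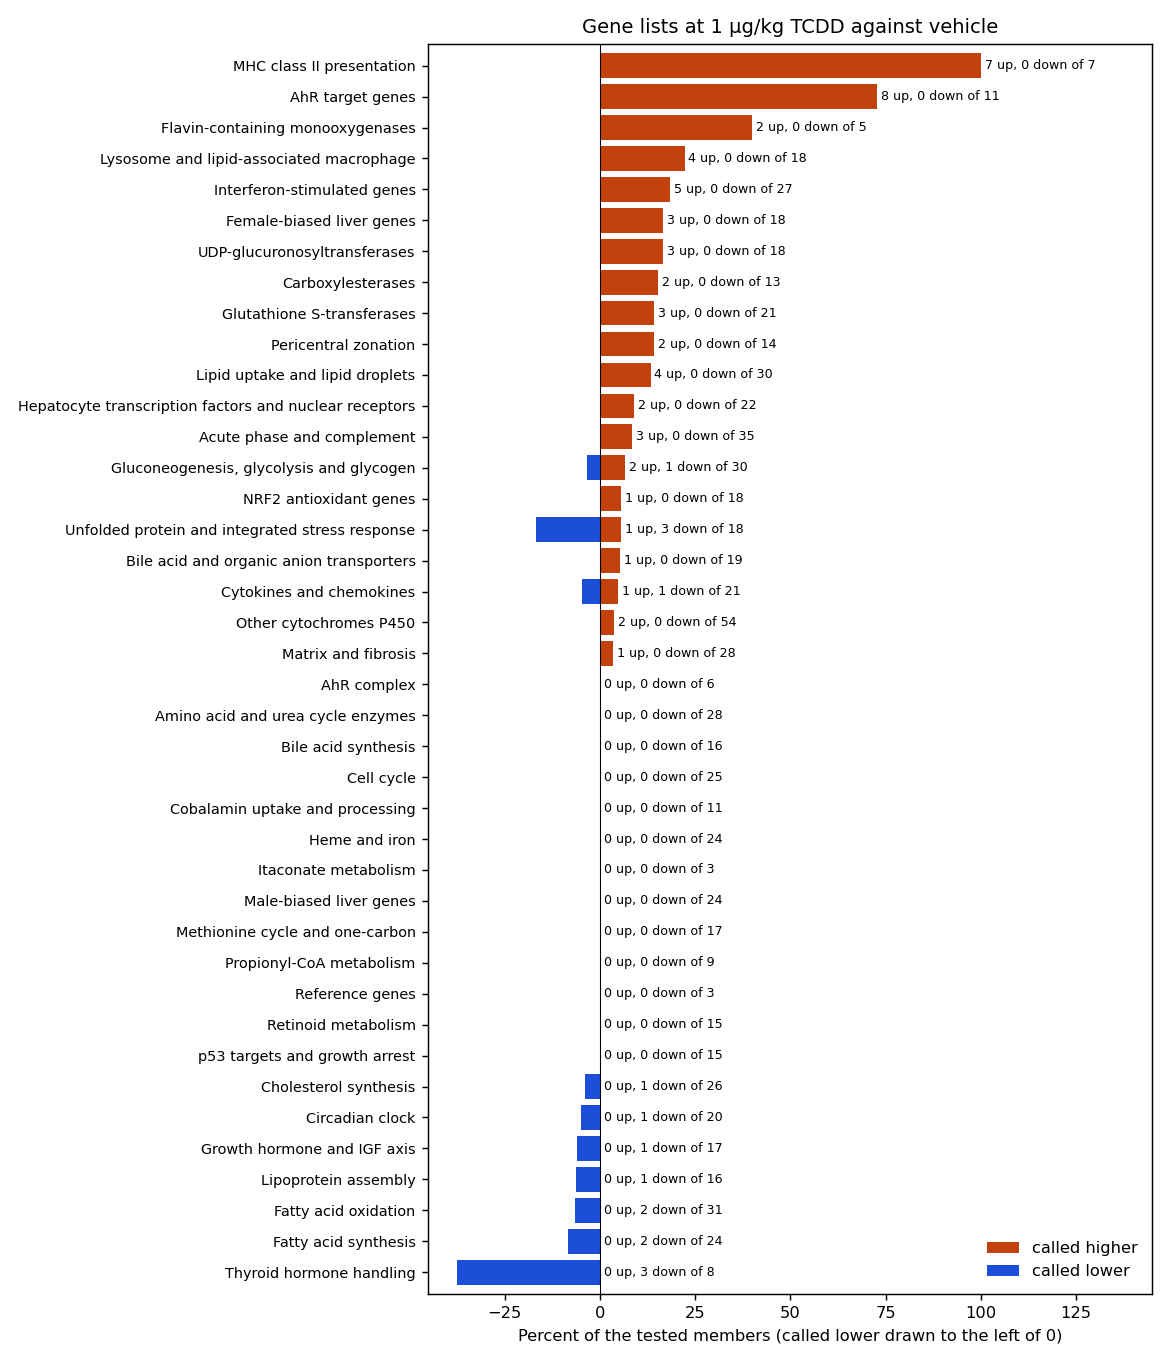
Percent of the tested members of 40 gene lists that were called higher (right of 0) or lower (left of 0) at 1 μg/kg, with the counts beside each bar. MHC class II presentation (7 of 7) and AhR targets (8 of 11) have the highest shares called higher, and thyroid hormone handling (3 of 8) the highest share called lower. The lists were chosen with earlier results of these data known.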

How the data were processed

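Liver RNA of 40 mice was sequenced after library preparation with an NEB Ultra II RNA kit, and the 5 vehicle and 5 TCDD 1 μg/kg libraries were compared. The authors trimmed and aligned the reads (Trimmomatic 0.39 and STAR 2.7.3a in the submitters' processing notes, with FastQC 0.11.7 for quality) and deposited raw counts per gene from STAR, of which the unstranded column was used, so reads of overlapping and antisense genes cannot be told apart. The notes name GRCm39 and mm10 without their roles. Symbols were found for 52083 of 55359 gene identifiers in GENCODE M21. Rows that name no gene were left out, and 75.8% to 79.7% of reads lay in genes.

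Counts of all 40 libraries were fitted with edgeR 4.0.16 (R 4.3.3, limma 3.58.1), with 1 mean per dose, TMM scaling, filterByExpr (minimum count 10, minimum total 15) and the quasi-likelihood test with Benjamini-Hochberg adjustment. A gene was called at an adjusted p under 0.05 and a fold change of at least 1.5. CPM values are counts scaled to a common library total. A fold against vehicle libraries all at or under 3 counts is a lower bound against that floor. The scripts were tested on simulated data. Alternatives were DESeq2 1.42.0, other scalings and filters, the 10 libraries alone, the title number runs and leaving out libraries.

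The genes and lists were chosen with earlier results of these data known. Genes named were the 12 largest rises and 12 largest falls among called genes with a symbol other than a clone name, a group mean of 100 counts or more, and no treated mouse across the vehicle mean from the others, together with called list members, all AhR, propionyl-CoA, cobalamin, itaconate and reference genes, and defining cell markers. Other list genes are named where a list without calls needed examples, chosen after their values were seen. Some genes that this rule names are not reported here. Promoters shown were those with at least 2 matches, to which Cyp1a1 and Cyp1b1 were added. The labels do not say whether mice shared cages or litters. No pair of replicate libraries agreed within sampling noise (lowest chi-square per degree of freedom 14.6 over 20 pairs).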

Additional observations from a re-analysis of the deposited data

Results flagged for a closer look

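In each group of 5 mice, the CPM of each of 121 named genes was examined for a single library far from the other 4, and 16 of 242 groups had one. Chance flags about 1 in 20 groups, and no difference in response between the title number runs passed edgeR's test for a named gene.

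Vehicle mouse 2 was high for Acta1 (146 CPM against 0 to 0.0647), Tpm2 (59.5 against 3.43 to 7.18) and Pkm (25.3 against 11.8 to 13.1). Treated mouse 3 was high for Saa1 (1960 CPM against 38.2 to 59.6), Saa2 (1520 against 18.2 to 34.4) and Orm2 (85.3 against 11.0 to 15.3). Treated mouse 2 was high for Acnat2 (16.1 CPM against 5.69 to 8.70), Tpm2 (4.36 against 3.25 to 3.53) and Sult1a1 (232 against 154 to 171).

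Single values in other mice were Sdf2l1 in vehicle mouse 3 (112 CPM against 30.8 to 49.6), Acaa1b in vehicle mouse 1 (1040 against 1700 to 1950), Abcd2 in treated mouse 5 (13.5 against 27.7 to 31.5) and Manf in treated mouse 4 (44.7 against 55.8 to 59.1). Vehicle mouse 5 was low for Psat1 (0.43 CPM against 0.796 to 0.909) and high for Asgr2 (318 against 236 to 259) and Hprt (70.5 against 57.2 to 59.2).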

How the results depend on the processing

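The total of 428 calls stayed within 1.5 times its value under the alternatives tried, except in either title number run alone, which have fewer mice: 173 calls (136 higher, 37 lower) in the first and 76 (67 higher, 9 lower) in the second. The number lower was also 180 with the 10 libraries alone, 173 with no fold threshold, 50 without vehicle mouse 2 and treated mouse 3 (an alternative added after seeing the data), and 62 to 94 when 1 library was left out, with the lowest counts without treated mouse 1 (64), 3 (62) or 4 (63). The cause was not tested for these. DESeq2 called 541 genes, 425 of them shared with the 428. Of 87 named genes called, 57 kept their call in all 10 fits without 1 library, 13 lost it in 1 to 3 and 17 in 4 or more. DESeq2 changed no call among the 121 named genes.

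Signs that turned belonged to genes with no call in either setting. Under total counts alone the log2 fold change was 0.03 for Pcca, 0.08 for Acads, 0.08 for Mmachc and 0.06 for Mmaa. In the first run alone it was 0.06 for Pcca, 0.12 for Acads, 0.06 for Asgr1, 0.02 for Mmaa, -0.04 for Mmab, -0.01 for Mtrr and -0.11 for Actb. In the second it was 0.15 for Hsp90aa1, -0.30 for Mcee, 0.08 for Mut, -0.12 for Echs1, -0.05 for Cd320, -0.02 for Lmbrd1, 0.07 for Mmachc and -0.08 for Mmadhc. Without both libraries that stood apart it was -0.05 for Mmadhc and 0.05 for Mmaa. When 1 library was left out, Arnt ranged from -0.04 to 0.15, Mcee from -0.03 to 0.15, Acads from -0.08 to 0.04, Hibch from -0.04 to 0.08, Cd320 from -0.01 to 0.12, Lmbrd1 from -0.01 to 0.07, Mmachc from -0.11 to 0.07, Mmadhc from -0.04 to 0.05, Mmaa from -0.09 to 0.02, Mmab from -0.03 to 0.08 and Actb from -0.04 to 0.06.

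No paired analysis was possible because the labels give no replicate numbers shared between groups. The serial numbers in the titles were instead used as covariates, which gave 445 calls (344 higher, 101 lower) with the run and 516 (393 higher, 123 lower) with the run and the order within it. Depth limits transcripts near 3 counts per library, about 0.188 CPM in vehicle and 0.176 CPM at 1 μg/kg, where fold changes are lower bounds at best.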
